A study of Mus musculus with 6 samples.

Results

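The enzymes that remove acetyl groups from histones and the bromodomain proteins that read them were compared between WT and Kansl1 KO primary mouse embryonic fibroblasts (MEFs). The set held 36 genes of the 26898 in the deposited expression table, taken by gene symbol: 11 HDAC genes, 7 sirtuin genes and 18 bromodomain genes. The selection rule uses gene symbols and no measured value, although the set was proposed with earlier results of these data known. The 6 RNA-seq libraries came from passage 3 MEFs of the C57BL/6 strain grown, by the labels, with 10% serum (the culture section of the study's methods states more), 3 per group, from 3 mice a group by the methods of the study. WT cells were Kansl1fl/fl, carrying 2 alleles that Cre can delete, and KO cells were Kansl1fl/fl/CAG-cre, with the same alleles plus a tamoxifen-inducible Cre driven by the ubiquitous CAG promoter. Cells of both groups had received tamoxifen (1 μM for 48 h), so the KO group carried Cre and the deletion together and their effects cannot be told apart here.

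KANSL1 is a scaffold of the NSL complex, in which the acetyltransferase KAT8 acetylates histone H4. Acetyl marks placed by such enzymes are removed by zinc-dependent HDACs and NAD+-dependent sirtuins, and are bound by bromodomains, small folds found in transcription regulators, remodellers and acetyltransferase scaffolds. Fibroblasts use these proteins in transcription, DNA repair, cytoskeletal deacetylation and, through the mitochondrial sirtuins, metabolism.

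Kansl1 itself, at 13.7 to 15.8 TPM in KO against 24.4 to 28.5 TPM in WT MEFs (TPM, in which reads are divided by gene length and scaled to a total of 1000000 per sample), fell to 55.1% of the WT mean (limma log2 fold change -0.82, SE 0.11, adjusted p = 0.000859). The libraries held 17655495 to 27718259 reads assigned to genes. Between 15.5% and 25.6% of TPM went to a single short RNA, Gm23935, with the highest share in KO 3 and the next highest in WT 8. These samples also had the lowest value of their group for 30 and 28 of the 34 tested members. A share of this kind lowers every other TPM value of its library, and its part in the results below was not tested beyond the rescaled fits. The summed fibroblast markers overlapped between groups (10330 to 14920 TPM in WT, 11070 to 14530 TPM in KO). Summed proliferation markers were 573 to 690.0 TPM in WT and 357 to 482 TPM in KO. Of these 10 markers, 4 were called lower (Mki67, Ccnb1, Ccna2 and Birc5), against 9.03% of all tested genes. All KO samples lay below all WT samples in 9 of them, against 29.9% of all tested genes, and Pcna overlapped. Macrophage markers summed to 16.4 to 19.1 TPM in WT and 24.9 to 45.5 TPM in KO, with 6 of the 7 tested markers above WT in every KO sample and Ptprc, Itgam and Aif1 under 1 TPM. Of the 7, 0 were called by limma, voom or median-of-ratios scaling, and these 6 passed both an unadjusted p and an adjusted p of 0.05. With KO 3 left out, limma called 1 macrophage marker higher. Epithelial markers summed to 40.4 to 45.7 TPM in WT and 49.2 to 66.4 TPM in KO, with Epcam, Cdh1 and Krt5 under 1 TPM. Neither tested marker was called (Krt8 and Krt18, both above WT in every KO sample). Krt8 passed a limma adjusted p of 0.05 (0.0446) and Krt18 did not (0.0741). The part of these marker lists in the values below was not tested.

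A gene was called when its limma adjusted p was below 0.005 and its log2 fold change on the log2(TPM + 1) scale exceeded 0.5 in size, thresholds used by the study. Of the 36 members, 34 reached a mean of 1 TPM in a group and were tested. Among these, Brd2, a BET bromodomain protein, was higher in KO MEFs, and Hdac8, a class I deacetylase, and Sirt4, a mitochondrial sirtuin, were lower. The 2 lower genes were 5.88% of the tested members, against 9.03% of all 14799 tested genes, and the 1 higher gene was 2.94%, against 1.64%. All KO samples lay below all WT samples in 12 members (35.3%, against 29.9% of all tested genes) and above them in 2 members (5.88%, against 13.3%). At an unadjusted limma p under 0.05, 3 members were higher (8.82%, against 12.2% of all tested genes). At the same cut, 11 were lower (32.4%, against 27.2%). The median log2 fold change was -0.09 over the members and -0.07 over all tested genes. The medians and most shares of the set were thus near those of the whole table. The share above WT in every KO sample was smaller, resting on 2 members, and this difference was not tested. Calls below concern single genes, and class sums are descriptions. In bulk RNA, fewer cells expressing a gene and less RNA per cell cannot be told apart.

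**Figure D1:**
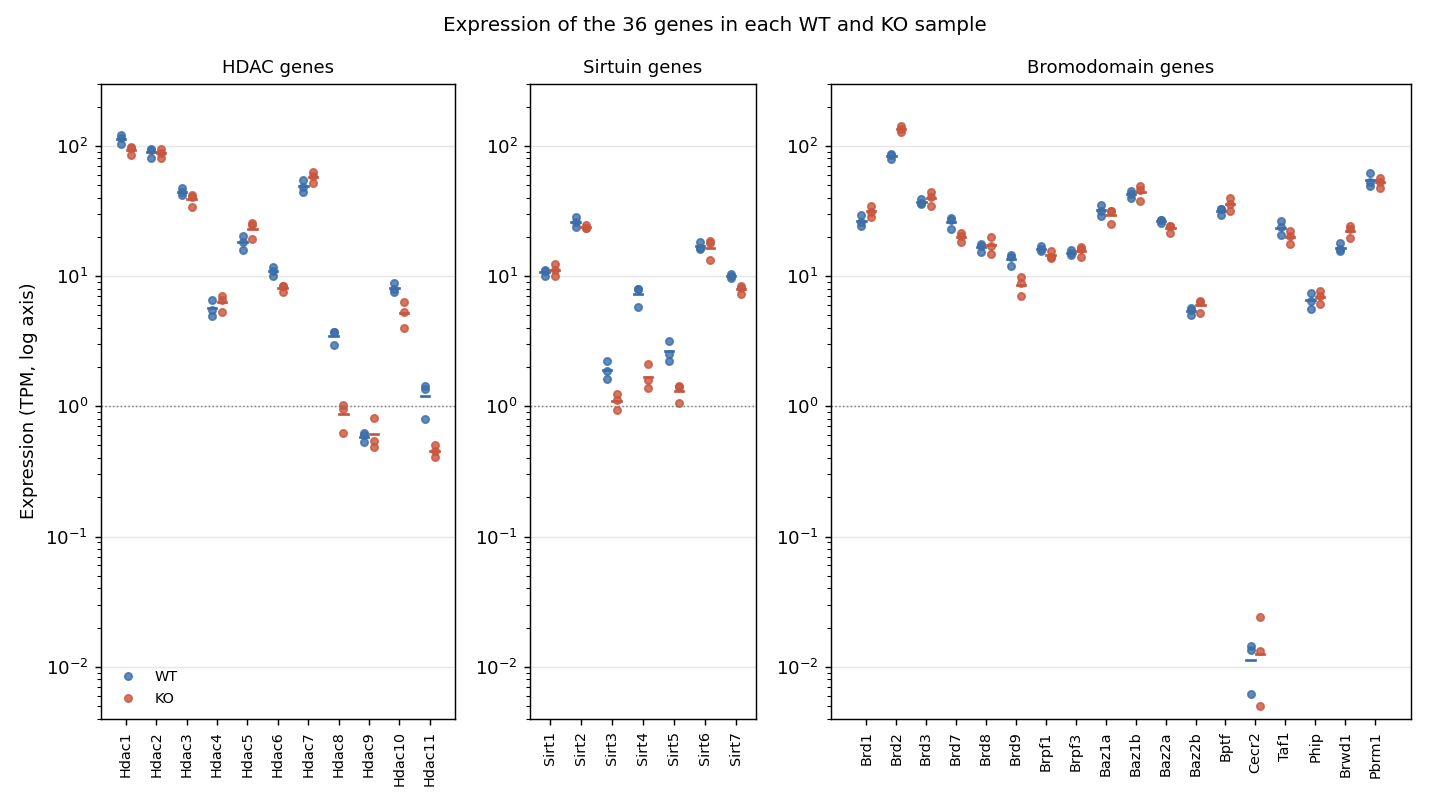
TPM of each member in the 3 WT and 3 KO samples (log axis), with a bar at each group mean and a dotted line at 1 TPM. The zero of Cecr2 in KO 3 is drawn at 0.005 TPM. Hdac8 and Sirt4 separate most widely downward, from means of 3.47 and 7.24 TPM to 0.866 and 1.69 TPM, and Brd2 upward, from 83.9 to 135 TPM.

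The sequences ahead of 4 genes are shown: Hdac8, Sirt4 and Brd2, which were called, and Brd9, which was called lower both by voom and with median-of-ratios scaling. Sirt5 and Brwd1, called by voom but not with median-of-ratios scaling, are not shown. RefSeq promoter windows (GRCm38.p6, the assembly of mm10) ran from 250 bases before to 50 after the start, and 30 of the 36 members had one. For Brd2 and Brd9, 3 and 2 promoters were listed, and only the window shown was read. Each run below gives the 250 bases before the RefSeq start, 5′ to 3′ on the gene's strand, with matches to searched motifs in capitals. For Hdac8 and Sirt4 the RefSeq start lies 201 and 428 bases inside the GENCODE gene, so these bases are partly or wholly transcribed in that annotation.
Hdac8 (chrX:102505159-102505408, minus strand): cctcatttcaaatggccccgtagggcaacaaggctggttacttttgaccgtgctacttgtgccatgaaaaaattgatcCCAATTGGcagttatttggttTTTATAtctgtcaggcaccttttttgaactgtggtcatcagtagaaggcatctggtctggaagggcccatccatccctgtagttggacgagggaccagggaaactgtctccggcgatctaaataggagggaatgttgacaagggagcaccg
Sirt4 (chr5:115484298-115484547, minus strand): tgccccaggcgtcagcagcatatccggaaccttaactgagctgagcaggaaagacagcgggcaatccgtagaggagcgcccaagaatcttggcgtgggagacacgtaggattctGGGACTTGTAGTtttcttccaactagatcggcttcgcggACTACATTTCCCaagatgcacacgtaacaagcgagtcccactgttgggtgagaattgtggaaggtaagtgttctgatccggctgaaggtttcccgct
Brd2 (chr17:34122608-34122857, minus strand): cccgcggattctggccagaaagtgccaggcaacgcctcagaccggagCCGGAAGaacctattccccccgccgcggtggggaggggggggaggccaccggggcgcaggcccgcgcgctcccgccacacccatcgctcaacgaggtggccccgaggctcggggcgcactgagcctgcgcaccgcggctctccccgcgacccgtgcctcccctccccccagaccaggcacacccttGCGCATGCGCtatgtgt
Brd9 (chr13:73937561-73937810, plus strand): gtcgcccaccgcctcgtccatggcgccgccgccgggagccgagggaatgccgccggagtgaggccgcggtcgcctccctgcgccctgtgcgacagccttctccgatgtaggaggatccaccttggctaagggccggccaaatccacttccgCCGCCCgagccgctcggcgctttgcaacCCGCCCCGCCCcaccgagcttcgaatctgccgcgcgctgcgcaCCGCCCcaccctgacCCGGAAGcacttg

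The windows differed in base content and in the motifs they held, searched on both strands. The Hdac8 window had 6 CpG dinucleotides, near the median of 7 over 32851 promoters, while Sirt4 had 15, Brd2 had 32 and Brd9 had 40. Over the 30 members the median was 26, and 26 of the 30 lay above the median of all promoters. Capitals in the Hdac8 run mark a CCAAT on each strand, overlapping by 2 letters, and a TATAAA on the opposite strand, motifs found in 37.4% and 13.6% of all promoters. The Sirt4 run holds 2 matches, 1 on each strand, to the motif named SBS, present in 1.81% of promoters. That motif was added after the Sirt4 sequence had been read, and the Sirt2 window also held 2 matches, although Sirt2 was not called. Brd2 carries an NRF1 site, the capitals nearest the start (0.971% of promoters), and the ETS site CCGGAAG (8.86%). Brd9 carries 4 GC boxes, GGGCGG on the opposite strand, of which 2 overlap by 1 letter (35.7% of promoters hold at least 1), and an ETS site. The CRE TGACGTCA and the YY1 site AAGATGGCG, held by 1.79% and 1.4% of promoters, had no match in these 4 windows.

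Among the class I deacetylases, the nuclear enzymes, Hdac8 was the 1 called gene. It encodes the deacetylase of the cohesin subunit SMC3 and works outside the large corepressor complexes. Hdac8 (ENSMUSG00000067567.12, mm10 chromosome X, 102284639 to 102505359, minus strand) measured 3.72, 3.75 and 2.94 TPM in WT samples 4, 5 and 8, and 0.625, 1.02 and 0.949 TPM in KO samples 3, 7 and 10, the order used throughout. The highest KO sample lay far below the lowest WT sample. Hdac8 reached a mean of 1 TPM only in WT, so the filter itself favoured a lower KO direction. The mean fell 4.01-fold, from 3.47 ± 0.458 to 0.866 ± 0.212 TPM (SD, n = 3 each), with a log2 fold change of -1.26 (SE 0.18, limma adjusted p = 0.00111). The values rested on 146, 159 and 135 recovered reads in WT and 22, 48 and 41 in KO. The pseudocount of 1 TPM compresses a gene at this level, and with 0.1 TPM the log2 fold change was -1.90. Adjusted p ranged from 0.000105 to 0.00763 over the alternatives, and the call was lost at 0.00763, when all 26898 genes were tested.

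Hdac1 and Hdac2, the paired catalytic subunits of the SIN3, NuRD and CoREST complexes, were the most highly expressed deacetylases on the length-scaled TPM measure. Hdac1 measured 120.4, 115 and 104 TPM in WT and 85.3, 98.2 and 95.9 TPM in KO, every KO sample below every WT sample, but was not called (log2 fold change -0.28, SE 0.10, limma adjusted p = 0.0726). Hdac2 overlapped between the groups at 80.4 to 94.3 TPM in WT and 81.1 to 93.9 TPM in KO. Its log2 fold change was -0.03 with a 95% interval of -0.26 to 0.21, and its sign turned under rescaling. Within each sample, Hdac1 was 1.22 to 1.29 times Hdac2 in WT and 1.05 to 1.09 times Hdac2 in KO, without overlap. Hdac3, the enzyme of the NCoR/SMRT corepressors, was at 41.8 to 47.0 TPM in WT and 34.1 to 42.2 TPM in KO, with overlap (log2 fold change -0.19, SE 0.11). Summed over the 4 class I genes, TPM was 250.2 ± 18.6 in WT and 220.4 ± 17.4 in KO (SD, n = 3 each), of which Hdac8 made 1.28% to 1.46% in WT and 0.311% to 0.435% in KO.

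The class IIa enzymes, which shuttle between nucleus and cytoplasm and bind MEF2 transcription factors, had positive estimates and no call by limma. At an unadjusted p under 0.05, 1 of the 3 tested was higher, against 12.2% of all tested genes. Voom on recovered reads and median-of-ratios scaling each called 0. Hdac5 measured 15.9, 20.3 and 18.3 TPM in WT and 19.2, 25.3 and 24.7 TPM in KO, so that KO 3 lay within the WT range (log2 fold change 0.33, SE 0.14, limma adjusted p = 0.111). Hdac7, the highest of the class, averaged 49.0 ± 5.08 TPM in WT and 57.8 ± 5.69 TPM in KO (SD, n = 3 each), and Hdac4 averaged 5.64 ± 0.805 and 6.29 ± 0.863 TPM, both with overlap. Hdac4 shares 3536 exonic bases with Gm26720 on the opposite strand, and use of strand in the counting was not given in the sources used here. Hdac9 was not tested, at 0.530 to 0.618 TPM in WT and 0.487 to 0.810 TPM in KO, from 52 to 106 reads a sample.

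Class IIb and class IV genes lay lower in every KO sample, as did 29.9% of all tested genes. None was called by limma at the thresholds used. Hdac10, a polyamine deacetylase, measured 8.84, 7.93 and 7.55 TPM in WT and 3.99, 5.28 and 6.27 TPM in KO, with a log2 fold change of -0.57 (SE 0.16, limma adjusted p = 0.0236), a call only at an adjusted p under 0.05 among the settings tried. Hdac6, the cytoplasmic deacetylase of tubulin, measured 11.01, 11.8 and 10.04 TPM in WT and 8.39, 8.32 and 7.61 TPM in KO, with a log2 fold change of -0.39 (SE 0.11, limma adjusted p = 0.0318). Their summed TPM in KO was 69.7% of WT, and the groups did not overlap. Hdac11, the single class IV enzyme, which acts on fatty acyl groups, measured 1.44, 1.36 and 0.794 TPM in WT and 0.5001, 0.456 and 0.407 TPM in KO. The 45, 46 and 29 reads in WT and 14, 17 and 14 in KO behind these values leave a wide interval, from -1.06 to -0.10 (log2 fold change -0.58, limma adjusted p = 0.0701), and the estimate was -1.27 by voom. Hdac11 reached a mean of 1 TPM only in WT, so the filter itself favoured a lower KO direction. With all genes tested, its limma adjusted p was 0.0561. Hdac11 also shares 594 exonic bases with the opposite-strand gene Gm44002.

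The mitochondrial sirtuins gave the lowest KO share of any class. Their summed TPM was 11.2, 12.3 and 11.8 in WT and 3.74, 4.30 and 4.24 in KO, or 34.8% of WT. All KO samples lay below all WT samples for each of the 3 genes, against 29.9% of all tested genes. Only Sirt4 was called by limma at the thresholds used. Sirt4, which acts as an ADP-ribosyltransferase and lipoamidase in the mitochondrial matrix (ENSMUSG00000029524.16, mm10 chromosome 5, 115478010 to 115484725, minus strand), was the highest of the class in WT, at 5.82, 7.89 and 8.00 TPM, and measured 1.38, 2.11 and 1.59 TPM in KO. Its mean fell 4.28-fold, from 7.24 ± 1.23 to 1.69 ± 0.377 TPM (SD, n = 3 each), with a log2 fold change of -1.61 (SE 0.17, limma adjusted p = 0.000356). Recovered reads numbered 113, 166 and 182 in WT and 24, 49 and 34 in KO. Sirt4 was called under each of the 6 alternatives that could test it and with each sample left out in turn, with adjusted p from 0.000356 to 0.00498. Among these alternatives, an adjusted p under 0.05 and no fold threshold only loosened the reported fit, so they could not lose a call. Its share of the class was 51.8% to 67.7% in WT and 36.8% to 49.0% in KO.

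The other two mitochondrial sirtuins were lower in all KO samples at low expression. Sirt5, which removes succinyl, malonyl and glutaryl groups, measured 3.18, 2.51 and 2.21 TPM in WT and 1.42, 1.07 and 1.42 TPM in KO (log2 fold change -0.65, SE 0.18, limma adjusted p = 0.0231). It was called by voom (-0.96, adjusted p = 0.00428), within a range of 0.00428 to 0.0725 over all settings. Sirt3, the main deacetylase of mitochondrial proteins, measured 2.23, 1.87 and 1.61 TPM in WT and 0.944, 1.123 and 1.24 TPM in KO (log2 fold change -0.46, SE 0.18, limma adjusted p = 0.0856). The Sirt3 estimate was -0.73 with a pseudocount of 0.1 TPM and -0.69 by voom (voom adjusted p = 0.00905), without a call in either. Sirt3 shares 418 exonic bases with Ric8a on the opposite strand.

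The nuclear and cytosolic sirtuins were expressed at higher levels and lay nearer to WT. None of the 4 was called by limma, voom or median-of-ratios scaling. At an unadjusted p under 0.05 only Sirt7 was lower, against 27.2% of all tested genes. Sirt7, a nucleolar deacetylase, measured 10.4, 9.95 and 9.71 TPM in WT and 7.27, 8.32 and 8.12 TPM in KO (log2 fold change -0.31, SE 0.11, limma adjusted p = 0.0702). Sirt1, the nuclear deacetylase of p53 and other factors, averaged 10.7 ± 0.592 TPM in WT and 11.1 ± 1.17 TPM in KO (SD, n = 3 each), with a 95% interval of -0.22 to 0.31. Sirt2, the cytosolic tubulin deacetylase, was the highest sirtuin at 23.9 to 28.5 TPM in WT and 23.2 to 24.5 TPM in KO. Sirt6, which acts on telomeric chromatin and in DNA repair, ranged from 16.1 to 18.3 TPM in WT and from 13.2 to 18.5 TPM in KO, and the sign of its estimate (-0.05) turned under rescaling. Because the mitochondrial genes are the lowest of the family, the sum over all 7 sirtuins in KO was still 83.6% of WT.

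Among the bromodomain genes, Brd2 was the 1 gene called by limma at the thresholds used and the most highly expressed in WT. BRD2 is a BET protein, with paired bromodomains that bind acetylated histone H4. Brd2 (ENSMUSG00000024335.20, mm10 chromosome 17, 34112023 to 34122634, minus strand) measured 85.6, 86.7 and 79.4 TPM in WT and 129, 143 and 134 TPM in KO. The mean rose 1.61-fold, from 83.9 ± 3.95 to 135 ± 7.19 TPM (SD, n = 3 each), with a log2 fold change of 0.68 (SE 0.09, limma adjusted p = 0.000952). The call was lost without KO 10 (0.69, adjusted p = 0.00520), and adjusted p over the other alternatives and left-out samples went down to 8.98e-06. Brd2 shares 405 exonic bases with the opposite-strand gene CR974462.3. Brd3, its BET relative, measured 36.2, 39.2 and 35.4 TPM in WT and 34.3, 44.1 and 40.3 TPM in KO, with overlap, and its 95% interval ran from -0.17 to 0.35. Within a sample Brd2 was 2.36, 2.21 and 2.24 times Brd3 in WT and 3.75, 3.24 and 3.33 times Brd3 in KO, a ratio that any scaling of a library leaves in place.

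The SWI/SNF subunits divided by gene. Brd9, which belongs to the non-canonical BAF complex (ENSMUSG00000057649.6, mm10 chromosome 13, 73937811 to 73960895, plus strand), measured 14.4, 13.9 and 11.9 TPM in WT and 6.96, 9.88 and 8.88 TPM in KO. The KO samples lay below all WT samples, at 64.0% of the WT mean, but Brd9 missed the threshold (log2 fold change -0.60, SE 0.14, limma adjusted p = 0.0136). It was called lower with median-of-ratios scaling (-0.52, adjusted p = 0.00267), by voom (-0.55, adjusted p = 0.000634) and when testing was limited to genes averaging 10 TPM or more (adjusted p = 0.00219), within a range of 0.000634 to 0.0454 over all settings. Brd7, a subunit of the PBAF complex, measured 27.8, 26.9 and 23.0 TPM in WT and 18.1, 21.2 and 20.2 TPM in KO (log2 fold change -0.37, SE 0.11, limma adjusted p = 0.0400). Its fold change stayed under the size threshold in every setting tried that uses one. Pbrm1, the defining PBAF subunit, overlapped at 48.9 to 62.1 TPM in WT and 47.1 to 56.8 TPM in KO. Brd7 was 1.93 to 1.94 times Brd9 in WT and 2.15 to 2.61 times Brd9 in KO.

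The WD40 bromodomain proteins had positive estimates. Brwd1 measured 15.5, 17.8 and 16.1 TPM in WT and 19.4, 24.2 and 23.1 TPM in KO, above WT in every sample (log2 fold change 0.41, SE 0.12, limma adjusted p = 0.0303). It was called by voom, at 0.52 (adjusted p = 0.000554, range over all settings 0.000554 to 0.121). Phip, its relative, overlapped at 5.58 to 7.46 TPM in WT and 6.08 to 7.67 TPM in KO. By voom the members called were thus 2 higher and 4 lower (all tested genes, 3.98% and 12.6%), and with median-of-ratios scaling 1 higher and 3 lower (2.99% and 10.1%).

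No gene of the acetyltransferase scaffolds or the ISWI remodeller subunits was called by limma, voom or median-of-ratios scaling. In the reported limma fit, 0 passed an unadjusted p of 0.05. By voom, Brd1 (0.33, adjusted p = 0.00304) and Bptf (0.27, adjusted p = 0.00165) passed the p threshold and missed the size threshold. Bptf did so with median-of-ratios scaling too (0.27, limma adjusted p = 0.00415). Brd1, a scaffold of the KAT7 complex, averaged 26.5 ± 2.64 TPM in WT and 31.3 ± 2.91 TPM in KO (SD, n = 3 each; log2 fold change 0.23). Brpf1 and Brpf3, scaffolds of MYST acetyltransferases, averaged 16.2 and 15.1 TPM in WT and 14.4 and 15.6 TPM in KO, and Brd8, of the TIP60 complex, averaged 16.7 and 17.2 TPM. All 4 overlapped between groups. Of the ISWI partners, Baz2a, of the NoRC complex that silences ribosomal DNA, was lower in every KO sample (25.6 to 27.0 TPM in WT, 21.4 to 24.3 TPM in KO) with a log2 fold change of -0.18. Baz1a, Baz1b, Baz2b and Bptf, the large NURF subunit, had estimates between -0.11 and 0.18. Cecr2 was not tested, with 0 to 4 reads a sample. Taf1, the largest TFIID subunit, overlapped at 20.7 to 26.3 TPM in WT and 17.5 to 22.4 TPM in KO (log2 fold change -0.22).

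**Figure D2:**
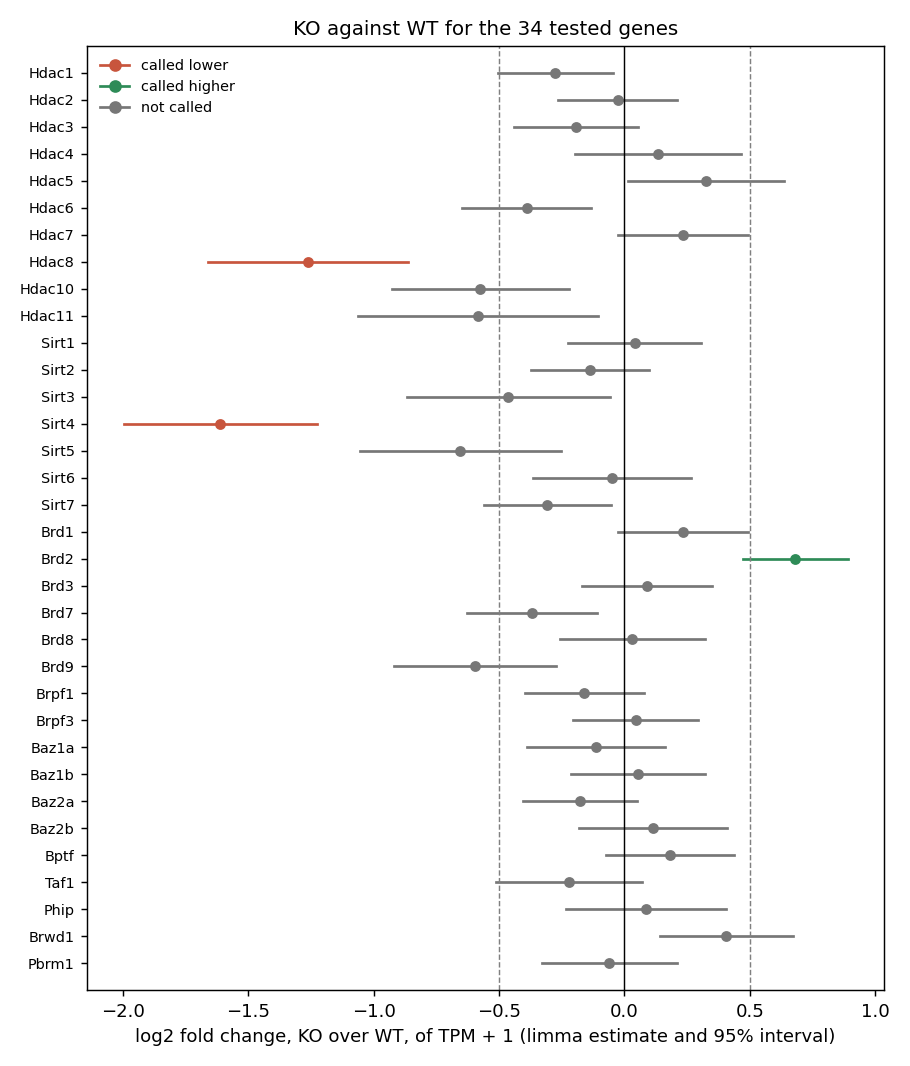
limma log2 fold change of KO over WT on the log2(TPM + 1) scale for the 34 tested members, with 95% intervals and dashed lines at 0.5 on either side of 0. Sirt4 (-1.61) and Hdac8 (-1.26) lie apart on the left and Brd2 (0.68) on the right, while 19 intervals lie wholly between the dashed lines.

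The precision of the estimates bounds what was detectable. Of the 31 members tested and not called, 19 had a 95% interval wholly within 0.5 of 0, and the others could not be placed on either side of that size. The members called lower had low to moderate WT levels, 3.47 and 7.24 TPM, against a median of 16.9 TPM over the members not called and 11.8 TPM over all tested genes.

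Genes that work with the members were read from lists of their complexes. Of 99 partner genes in the table, 94 were tested, 4 were lower and 0 were higher by limma, against 9.03% and 1.64% of all tested genes, with a median log2 fold change of -0.07. At an unadjusted p under 0.05, 7 were higher (7.45%, against 12.2% of all tested genes) and 23 lower (24.5%, against 27.2%), while voom called 1 higher (Nmnat2) and 5 lower (the same 4 and Tbp, the TATA-binding protein), and median-of-ratios scaling called 1 higher (Nmnat2) and the same 4 lower. Dmap1, a subunit shared with the TIP60 complex of Brd8, measured 18.1, 18.04 and 17.2 TPM in WT and 4.90, 6.46 and 5.69 TPM in KO, a 3.12-fold fall (log2 fold change -1.49, SE 0.12, limma adjusted p = 0.000163). Taf3, the TFIID subunit that reads methylated histone H3, measured 6.70, 6.94 and 6.02 TPM in WT and 1.83, 2.88 and 2.67 TPM in KO (log2 fold change -1.14, SE 0.16, limma adjusted p = 0.00105). In neither gene did the groups overlap.

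Nmnat1, the nuclear enzyme making the NAD+ that sirtuins consume, measured 6.50, 5.63 and 5.76 TPM in WT and 2.58, 2.69 and 3.21 TPM in KO, or 47.4% of WT (log2 fold change -0.87, SE 0.14, limma adjusted p = 0.00191). Nmnat2, the Golgi form, lay above WT in every KO sample, at 2.45 to 2.77 TPM in WT and 4.52 to 7.27 TPM in KO, and missed the threshold narrowly (log2 fold change 0.88, limma adjusted p = 0.005001). Gps2, the NCoR subunit that works with Hdac3, fell from 27.0 ± 1.61 to 16.4 ± 2.23 TPM (SD, n = 3 each; log2 fold change -0.69, limma adjusted p = 0.00284). No partner of SIN3, NuRD, CoREST and MiDAC, MEF2, ISWI or SWI/SNF was called by limma, voom or median-of-ratios scaling, and over these lists 0 to 4 genes each were lower and 0 to 1 higher at an unadjusted p under 0.05. Actl6a, of SWI/SNF, and Pole3, of ISWI, were called lower when testing was limited to genes averaging 10 TPM or more and at an adjusted p under 0.05, which also called Smarca1 of ISWI lower. With 1 sample left out, 2 to 3 of the 4 lower partners were still called, Dmap1 and Taf3 each time, and with all genes tested only Dmap1 was.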

How the data were processed

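RNA-seq had been run on total RNA (2 μg per sample) of 6 samples, whose titles name them WT (4, 5, 8) or KO (3, 7, 10). The authors aligned reads to mm10 with STAR, while the submitters' processing notes name Bowtie 0.12.2; the counting program and its use of strand are not given in the sources used here. The authors deposited expression as TPM, with every sample column summing to 1000000. A log2 fold change and an adjusted p-value per gene, deposited by the authors from their own test, were left unused. The 26898 genes matched GENCODE M21. With its merged exon lengths, 100.0% of 17832 to 18650 values per sample were whole multiples of 1 read (tolerance 0.05), and these recovered reads gave the depth and the voom alternative.

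limma 3.58.1 (R 4.3.3) was fitted with a variance trend to log2(TPM + 1) of the 14799 genes with a group mean of at least 1 TPM. It had no covariate and Benjamini-Hochberg adjustment over these genes. Fold changes on the log2(TPM + 1) scale understate the change of low genes. The fit was also run on simulated data drawn from the mean profile of the samples. That simulation lacked the varying Gm23935 share and cannot show how the fit behaves with it. DESeq2 and edgeR were not run. The deposited unit is TPM, and among the fits only voom used the recovered reads. With few reads per gene, depth limits precision, and p-values measure the spread between 3 samples a group. Alternatives were a pseudocount of 0.1 TPM, no filter, a mean of at least 10 TPM, median-of-ratios scaling, voom with TMM factors, an adjusted p under 0.05, no fold threshold, and leaving out each sample.

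All members, Kansl1 and the called partner genes are named. Nmnat2, the partners called only under other settings and the paired ratios were chosen after their values were seen. The members and lists were chosen with earlier results of these data known. Of the partner names, 3 were alternative symbols of others. Class sums, ratios and motif searches are descriptions without a test, as were the marker sums. Single marker genes with a group mean of at least 1 TPM were tested in the same limma fit. The other marker lists were endothelial (2.23 to 5.57 TPM summed over all samples), neural (185 to 272), muscle (71.1 to 108) and erythroid (0 to 0.149). No gene of these lists was called, and no erythroid gene was tested.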

Additional observations from a re-analysis of the deposited data

How the results depend on the processing

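No paired analysis was possible, because the labels give no litter or preparation and no replicate number occurs in both groups. Any pairing of the samples is thus unknown. With all genes tested, 1 member and 1 partner gene were lower and 55 and 286 genes were higher and lower, against 242 and 1337 in the reported fit. With a mean of at least 10 TPM, 1 member was lower (Brd9, since Hdac8 and Sirt4 could not be tested) and 1 partner higher (Taf10). A pseudocount of 0.1 TPM gave 1 higher partner (Nmnat2). Median-of-ratios scaling gave 1 higher partner and 442 higher genes. Voom gave 2 higher and 4 lower members, 1 higher partner and 589 higher genes. An adjusted p under 0.05 gave 5 lower members, 2 higher partners (Nmnat2 and Taf10) and 9 lower (Tbp, Taf11, Actl6a, Pole3 and Smarca1 beside the reported 4), and 694 higher and 2453 lower genes. With 1 sample left out, higher members numbered 0 to 1, lower partners 2 to 3, higher genes 84 to 252 and lower genes 617 to 938. The causes of these shifts were not tested.

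The median log2 fold change of all genes was -0.07 as reported, 0.01 with either rescaling, and -0.13 to -0.01 with a sample left out. Some small estimates turned sign. Hdac2 was 0.060 with median-of-ratios scaling, 0.059 by voom and -0.100 to 0.026 with a sample left out. Sirt6 was 0.034, 0.046 and -0.134 to 0.096 in the same order, and Pbrm1 was 0.027, 0.026 and -0.136 to 0.034. With a sample left out, Sirt1 ranged from -0.029 to 0.110, Brd8 from -0.071 to 0.132, Phip from -0.004 to 0.178, Brpf3 from -0.008 to 0.119 and Baz1b from -0.023 to 0.163. Of the other member estimates under an alternative, 401 kept direction and call, 8 gained a call and 2 lost one. The first count includes settings in which direction could not change. No filter, a mean of at least 10 TPM, an adjusted p under 0.05 and no fold threshold left each estimate as reported. Of the tested members, Hdac8, Hdac11, Sirt3 and Sirt4 had under 50 reads in a KO sample.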

Other observations

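Within 1000 bp of a member's start, 12 members had another gene starting on the opposite strand, and 9 of these neighbours were tested. By limma, 3 were called, each of them lower (9.03% of all tested genes were lower). The 9 tested neighbours are named below, in an order chosen after their values were seen. Trip13, a regulator of the mitotic checkpoint that starts 27 bp from Brd9, measured 32.3, 29.3 and 24.0 TPM in WT and 15.2, 18.8 and 16.6 TPM in KO (log2 fold change -0.72, SE 0.13, limma adjusted p = 0.00395). Psmd13, a proteasome lid subunit 341 bp from Sirt3, fell from 77.3 ± 8.198 to 48.6 ± 4.38 TPM (SD, n = 3 each; limma adjusted p = 0.00284). Nfkbib, an inhibitor of NF-κB 777 bp from Sirt2, fell from 19.6 ± 1.44 to 11.8 ± 1.17 TPM (SD, n = 3 each; limma adjusted p = 0.00256). The members beside them, Brd9, Sirt3 and Sirt2, had lower means in KO without being called in the same limma fit, although Brd9 was called lower under other scalings. Gnl3, 14 bp from Pbrm1, measured 52.1 to 66.5 TPM in WT and 51.8 to 64.6 TPM in KO, and neither gene of that pair was called. Kif20a, 12 bp from Brd8, had a limma log2 fold change of -0.64 without a call, while Brd8 was at 0.03. Dnajc12, 739 bp from Sirt1, and Ankrd24, 743 bp from Sirt6, were at -0.68 and -0.45 without a call. Their members Sirt1 and Sirt6 were at 0.04 and -0.05. March7, 48 bp from Baz2b, and AC144797.2, 150 bp from Brwd1, were at 0.30 and 0.65. Their members were at 0.115 and 0.41, and limma called none of these.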
